A study of Mus musculus with 8 samples.

Results

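Integrins are the receptors by which cells hold and sense the extracellular matrix. The 10 described here, Itga2, Itga3, Itga5, Itga6, Itgav, Itgb1, Itgb4, Itgb5, Itgb6 and Itgb8, are matrix-binding subunits known from epithelial cells. They are a chosen set and not all such subunits. They were taken by symbol from the 24421 rows of a table of raw read counts, and all 10 had a row. The table holds poly(A)-selected RNA from KPCY cells, a line of mouse pancreatic cancer cells labelled male. A line stably transduced with a lentiviral vector that inhibits miR-27a-3p (the knockdown, 4 libraries) was compared with a line that received a scrambled sequence (4 libraries). Both lines were selected in 2 µg/mL puromycin for 7 days and grown in medium with 4.5 g/L glucose and 10% serum. RNA came from cells 24 hours after they were seeded. KPCY names tumour cells of genetically engineered mice with a pancreatic Cre and a yellow fluorescent reporter, which both groups share. The labels call the libraries biological replicates. They also name 1 stable line per group and do not say that replicates came from separate transductions. A p-value here thus weighs a difference against the scatter of these 4 and 4 libraries only, and this scatter may still be technical.

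An integrin is a pair of 1 alpha and 1 beta chain, and the pair decides the ligand. The beta subunit Itgb1 joins most alpha chains: with Itga2 it binds collagen, with Itga3 and Itga6 laminin, and with Itga5 fibronectin. Itgav joins Itgb1, Itgb5, Itgb6 or Itgb8 to bind matrix proteins that carry an RGD sequence, and with Itgb6 or Itgb8 it activates latent TGF-beta. Itga6 with Itgb4 forms the core of the hemidesmosome, the junction that ties keratin filaments to the basement membrane. Talin and kindlin proteins bind the beta tails and switch the receptors on. In pancreatic cancer these receptors are known for attachment to the dense matrix, for migration and for survival signalling.

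The inhibited microRNA and the matches to its seed in these genes are shown first, because they are what the 2 lines differ in by design. The mature sequences come from RefSeq (GRCm38.p6), with the seed, bases 2 to 8, in capitals, and the miR-27b arm has the same seed.
mmu-miR-27a-3p: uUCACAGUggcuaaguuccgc
mmu-miR-27b-3p: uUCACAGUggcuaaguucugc

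The 3′ UTR (the transcript after the stop codon, here the longest one annotated per gene in GENCODE M21) was searched on the transcript's strand for the 6-base core CTGTGA. The core is part of the longer matches, which are the 8mer ACTGTGAA, the 7mer-m8 ACTGTGA and the 7mer-A1 CTGTGAA. Of 11364 tested genes with a 3′ UTR, 49.1% held a core and 6.41% an 8mer. Among the 10 integrin genes 4 held a core, and 2 of them, Itga2 and Itga5, held an 8mer. Windows around the matches are printed from the sense strand with the match in capitals.
Itga2 8mer (chr13:114833778-114833797, minus strand): ttgcctctttaACTGTGAAg
Itga5 8mer (chr15:103345081-103345100, minus strand): tccccccatgcACTGTGAAg
Itgav 6mer (chr2:83806359-83806378, plus strand): gtcatggacttcCTGTGAgg
Itgb8 7mer-m8 (chr12:119161280-119161299, minus strand): attgtcaaaatACTGTGAct
Itgb8 7mer-A1 (chr12:119161519-119161538, minus strand): caagtgtcttacCTGTGAAa

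Itga2 and Itgb8 each held 1 further 6mer. No core was found in the annotated 3′ UTRs of Itga3, Itga6, Itgb1, Itgb4, Itgb5 or Itgb6. A match is a string in an annotated transcript and does not say that the microRNA binds there.

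The libraries held 19165513 to 23542275 counts, and 11797 genes were tested with edgeR's quasi-likelihood test. Mature microRNAs are not in such libraries: the only count at either precursor gene was 1 at Mir27a, in knockdown replicate 2, so the knockdown itself was not measured here. Levels are given as CPM, the count scaled to library size with edgeR's TMM factors. A library with no count for a gene is still compatible with a level worth up to 3 counts, 0.129 to 0.155 CPM, and this limit covers counting error alone. Scrambled replicate 2 stood apart, since pairs with it differed by a mean chi-square of 5.17 to 5.36 for each gene and the other scrambled pairs by 1.80 to 2.35, and results that rest on it are also given without it. The epithelial markers fitted the label, with all 10 tested. Their summed level was 10924 to 11891 CPM in scrambled and 11614 to 11941 CPM in knockdown libraries, most of it from Krt7, Krt8, Krt18 and Krt19. Epcam was the lowest of the 10, at 7.15 and 5.62 CPM. At an adjusted p under 0.05, 4 of the 10 were higher in the knockdown and 4 lower (80%, beside 47.9% of all tested genes). The fibroblast markers summed to at most 1.41 CPM, with 6 of 8 at 0 in every library (Dcn, Lum and Pdgfrb among them), and the endothelial markers to at most 1.16 CPM. The leukocyte markers summed to 3.27 to 5.02 CPM over all libraries, most of it Cd68, with Tyrobp and Lyz2 among those at 0. In such bulk RNA fewer cells of a type and less RNA per cell cannot be told apart.

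Of the 10 subunits 9 passed the filter on low counts, and 4 of these 9 differed between the lines at an adjusted p under 0.05. Itgb1, Itgb4 and Itgav rose in the knockdown and Itga2 fell slightly, while Itga3, Itga5, Itga6, Itgb5 and Itgb6 did not pass the test. The share of 44.4% lies near that of all tested genes, of which 47.9% were called, 23.8% higher and 24.1% lower. The same 4 subunits had groups that did not overlap, as had 42.2% of all tested genes. The median log2 fold change of the 9 was 0.031, beside 0.0017 over all tested genes. All 4 changes were under 1.25-fold.

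**Figure D1:**
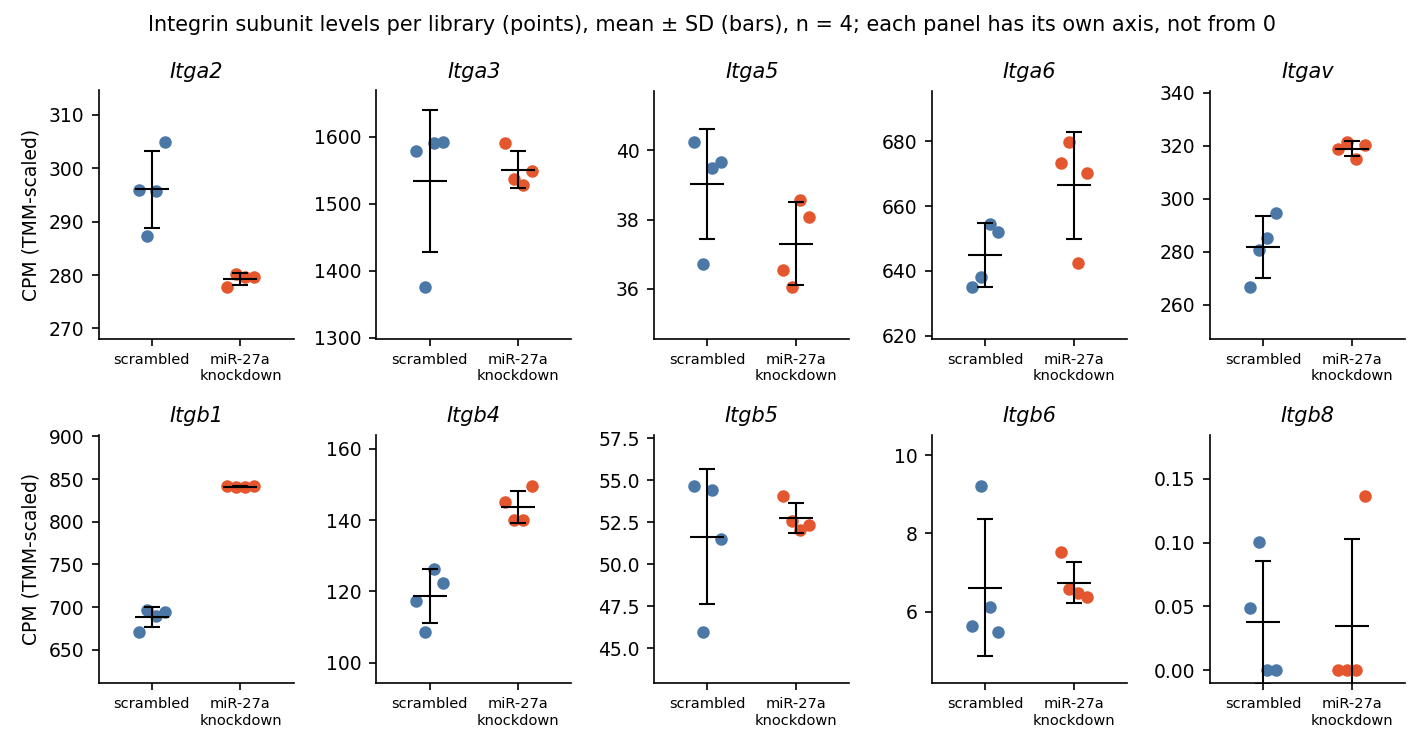
TMM-scaled CPM of each of the 10 subunits (1 panel each, axes not starting at 0) in the 4 scrambled (blue) and 4 knockdown (red) libraries, with mean and SD bars. The knockdown points lie above all scrambled points for Itgb1, Itgb4 and Itgav and below them for Itga2, and overlap them for the other 6.

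Itgb1, the common beta chain, showed the clearest difference. It stood at 671, 697, 689.6 and 694 CPM in scrambled replicates 1 to 4 and at 842, 840.4, 840.4 and 842 CPM in knockdown replicates 1 to 4. All knockdown libraries were above all scrambled ones. The knockdown libraries were closer to each other than counting error on their 16229 to 18459 counts would give. Their SD thus understates how uncertain the level is. The means were 688 ± 11.6 and 841 ± 0.854 CPM (SD, n = 4), a 1.22-fold rise (log2 fold change 0.29, SE 0.0203, edgeR adjusted p = 8.23e-11). Itgb1 lies at the far end of chromosome 8 (128685654 to 128733200), the chromosome that carries Mir27a, and the 647 tested genes of that chromosome had a median log2 fold change of 0.21, with 404 called higher and 35 lower. Relative to the genes of its own chromosome, in a fit with chromosome-centred offsets chosen after the data were seen, the log2 fold change of Itgb1 was 0.090 (edgeR adjusted p = 0.0014). Most of its difference was thus of the size seen along the chromosome as a whole, whose part in the result was not tested.

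Itgb4, the hemidesmosome beta chain with its long cytoplasmic tail, rose by a similar factor from a lower level. It had 117, 109, 126 and 122 CPM in scrambled replicates 1 to 4 and 145, 140.1, 140.0 and 149.6 CPM in knockdown replicates 1 to 4. The groups did not overlap, and scrambled replicate 2 was the lowest library. The means were 119 ± 7.63 and 144 ± 4.58 CPM (SD, n = 4), 1.21-fold apart (log2 fold change 0.28, SE 0.0377, edgeR adjusted p = 2.75e-06). Without scrambled replicate 2 the log2 fold change was 0.24 (edgeR adjusted p = 1.46e-09). Unlike Itgb1, Itgb4 moved against its chromosome: on chromosome 11 (115974709 to 116008412) the median log2 fold change was −0.059, and with chromosome-centred offsets that of Itgb4 was 0.33 (edgeR adjusted p = 3.96e-07). It shares 537 exon bases with the non-coding B230344G16Rik on the opposite strand, and the strand setting of the counting is not given in the sources used here.

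Itgav, the alpha chain of the RGD-binding receptors, rose 1.13-fold. Its scrambled libraries had 267, 281, 285 and 295 CPM and its knockdown libraries 319, 322, 315 and 320.4 CPM, in the order of the replicates. Every knockdown library was above every scrambled one. The means were 282 ± 11.7 and 319 ± 2.92 CPM (SD, n = 4; log2 fold change 0.18, SE 0.0272, edgeR adjusted p = 1.08e-05). On its chromosome 2 (83724397 to 83806916) the tested genes had a median of 0.026. Itgav shares 634 exon bases with the non-coding Gm13684 on the opposite strand.

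Itga2, the collagen-binding alpha chain, was the subunit that fell, by the smallest amount of the 4. It had 296, 287, 296 and 305 CPM in the scrambled libraries and 278, 280.2, 279.6 and 279.6 CPM in the knockdown libraries, in the order of the replicates. The ranges did not overlap, and the lowest scrambled library was replicate 2. The means of 296 ± 7.19 and 279 ± 1.11 CPM (SD, n = 4) were 1.06-fold apart (log2 fold change −0.084, SE 0.0240, edgeR adjusted p = 0.00616). Itga2 (chromosome 13, 114833081 to 114932100) holds the 8mer printed above. Its RNA was lower in the line with the inhibitor.

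Itga5, the fibronectin receptor's alpha chain and the other gene with an 8mer, did not pass the test. Its scrambled libraries ranged from 36.7 to 40.2 CPM and its knockdown libraries from 36.0 to 38.6 CPM (means 39.0 ± 1.58 and 37.3 ± 1.2 CPM, SD, n = 4). The log2 fold change was −0.065 with a 95% interval of −0.16 to 0.031 (edgeR adjusted p = 0.261). The 2 subunits that rose most, Itgb1 and Itgb4, held no core in their annotated 3′ UTRs. The third that rose, Itgav, held a 6mer. Outside the set, Itga1 also held an 8mer, and it was called higher, as given below. Whether matches go with changes in RNA was not tested.

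Itga3, the laminin receptor chain with the highest level of the 10, did not pass the test. It had 1579, 1375, 1591 and 1593 CPM in scrambled replicates 1 to 4 and 1590.4, 1538, 1528 and 1549.6 CPM in knockdown replicates 1 to 4. Scrambled replicate 2 was low and the other 3 scrambled libraries lay at or above most knockdown libraries. The log2 fold change was 0.016 (95% interval −0.052 to 0.083, edgeR adjusted p = 0.719), and −0.033 without scrambled replicate 2 (edgeR adjusted p = 0.0902).

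Itga6, the laminin receptor chain that pairs with Itgb1 or Itgb4, was close to the threshold. Its scrambled libraries ranged from 635 to 655 CPM and its knockdown libraries from 643 to 679.8 CPM, with means of 645 ± 9.81 and 666 ± 16.5 CPM (SD, n = 4). The ranges overlapped through knockdown replicate 3, the lowest of its group. The log2 fold change was 0.047 (95% interval 0.000603 to 0.094, edgeR adjusted p = 0.0886), with an adjusted p of 0.0305 in edgeR without knockdown replicate 3 and 0.0213 with upper-quartile scaling. Its 2 partners rose and Itga6 itself was not called, and the difference between their changes was not tested.

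Of the other beta partners of Itgav, neither of those tested passed the test. Itgb5, a vitronectin receptor chain, had 46.0 to 54.7 CPM in scrambled and 52.0 to 54.1 CPM in knockdown libraries (log2 fold change 0.029, 95% interval −0.071 to 0.13, edgeR adjusted p = 0.651), and the value without scrambled replicate 2, its lowest library, was −0.021. Itgb6, an activator of latent TGF-beta that is typical of epithelial cells, had 5.63, 9.22, 6.13 and 5.49 CPM in the scrambled and 7.52, 6.58, 6.49 and 6.38 CPM in the knockdown libraries. Scrambled replicate 2 had the highest level of the 8 and the other 3 scrambled libraries the 3 lowest. Its log2 fold change was 0.031 (95% interval −0.25 to 0.31, edgeR adjusted p = 0.87), and 0.23 without scrambled replicate 2 (edgeR adjusted p = 0.0942). At 113 to 183 counts per library its change is known far less closely than that of Itgb1.

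Itgb8, the other TGF-beta-activating beta chain, was at the limit of detection. It had 1, 2, 0 and 0 counts in scrambled replicates 1 to 4 and 0, 0, 0 and 3 in knockdown replicates 1 to 4. With at most 3 counts in a library, Itgb8 was at most a trace in either line and no fold is given. The other 9 of the 10 genes passed the filter on low counts.

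**Figure D2:**
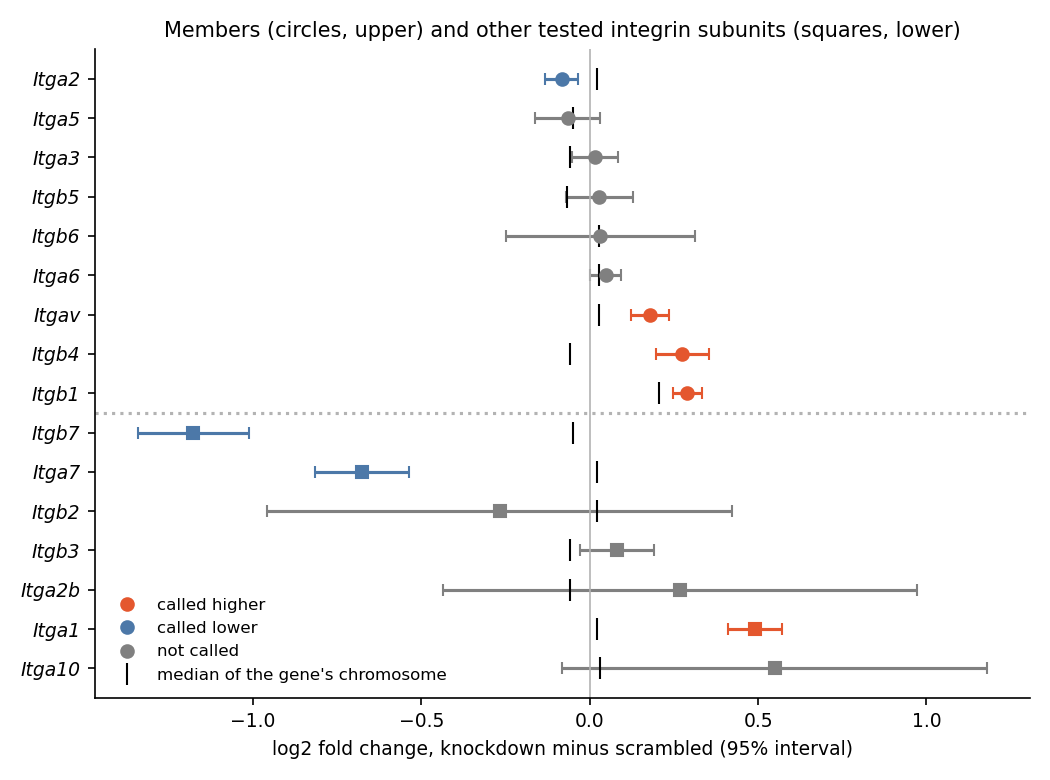
Log2 fold change (knockdown minus scrambled, with its 95% interval) of the 9 tested members (circles) and of 7 other tested integrin subunits (squares), coloured by call, where the black tick is the median of all tested genes on the same chromosome. Itgb1 at 0.29 lies near its chromosome's 0.21, while Itgb4 at 0.28 lies away from its chromosome's −0.059.

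Levels of different genes were set side by side as CPM per kilobase of annotated exon (all exons of the gene joined). In the scrambled cells Itga3 had the highest level, 269 ± 18.6, ahead of Itgb1 at 169 ± 2.85, Itga6 at 71.5 ± 1.09, Itga2 at 41.5 ± 1.01 and Itgav at 26.2 ± 1.09 CPM per kilobase. Itgb4 followed at 16.9 ± 1.09, Itgb5 at 14.5 ± 1.14, Itga5 at 7.91 ± 0.320 and Itgb6 at 0.930 ± 0.247 CPM per kilobase (SD, n = 4). No ranges of neighbours in this order overlapped, but Itgb4 and Itgb5 came as close as 15.5 and 15.4 CPM per kilobase. Itga3 was higher per kilobase than 99.1% of tested genes and Itgb1 than 98.5%, whereas Itga5 was near the middle (50.8%) and Itgb6 low (13.1%).

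The order was the same in the knockdown cells on this scale, with 272 ± 4.82 for Itga3 and 206 ± 0.209 CPM per kilobase for Itgb1. It depends on the length used where genes have many annotated exons. Per kilobase of the longest transcript, Itga6 stood at 149.6 in the scrambled cells, against 71.5 by joined exons, and Itgav at 39.9. On that scale the scrambled ranges of Itga2 (40.4 to 42.9) and Itgav (37.8 to 41.8 CPM per kilobase) overlapped, and in the knockdown Itgav (44.6 to 45.6) was above Itga2 (39.1 to 39.4).

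The balance of the chosen genes was described by shares of these levels within each library, with no test, since they are sums over those genes. Itga1, which is outside the set, is not in the alpha sum. Among the 5 alpha chains of the set, all of which pair with Itgb1, Itga3 made up 64.6 ± 1.42% in the scrambled and 64.4 ± 0.405% in the knockdown cells, and Itga6 17.2 ± 0.765% and 17.5 ± 0.312%. The share of Itgav was 6.32 ± 0.371% and 7.03 ± 0.0858%, and that of Itga2 9.99 ± 0.324% and 9.28 ± 0.156%. For Itga2 and Itgav the ranges of the groups did not overlap. By the longest transcript Itga3 made up 56.8% and Itga6 27% in the scrambled cells.

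Among the beta chains that pair with Itgav, Itgb1 made up 86.9 ± 1.03% in the scrambled and 88.7 ± 0.179% in the knockdown cells, and Itgb5 7.49 ± 0.595% and 6.39 ± 0.0924%. Itgb3, which is not in the set of 10, made up 5.15 ± 0.544% and 4.55 ± 0.106%, and Itgb6 less than 1% in every library. The level of Itgb5 itself was not called as changed (51.6 and 52.7 CPM), so its smaller share goes with the higher Itgb1 in the sum. Since Itgb1 also joins the other alpha chains, these shares do not give the partners of Itgav. Itgb1 reached 0.406 ± 0.0246 of the summed level of the 5 alpha chains in the scrambled cells and 0.489 ± 0.00624 in the knockdown, with no overlap between the groups (0.390 to 0.443 and 0.481 to 0.496). That sum itself was 416 ± 20.5 and 422 ± 5.76 CPM per kilobase. The ratio thus mainly restates the rise of Itgb1 given above, with the same limit from its chromosome. Itgb4 was 0.237 ± 0.0125 of the level of Itga6 in the scrambled and 0.277 ± 0.00918 in the knockdown cells. RNA levels do not give the amounts of the pairs at the cell surface, which were not measured.

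**Figure D3:**
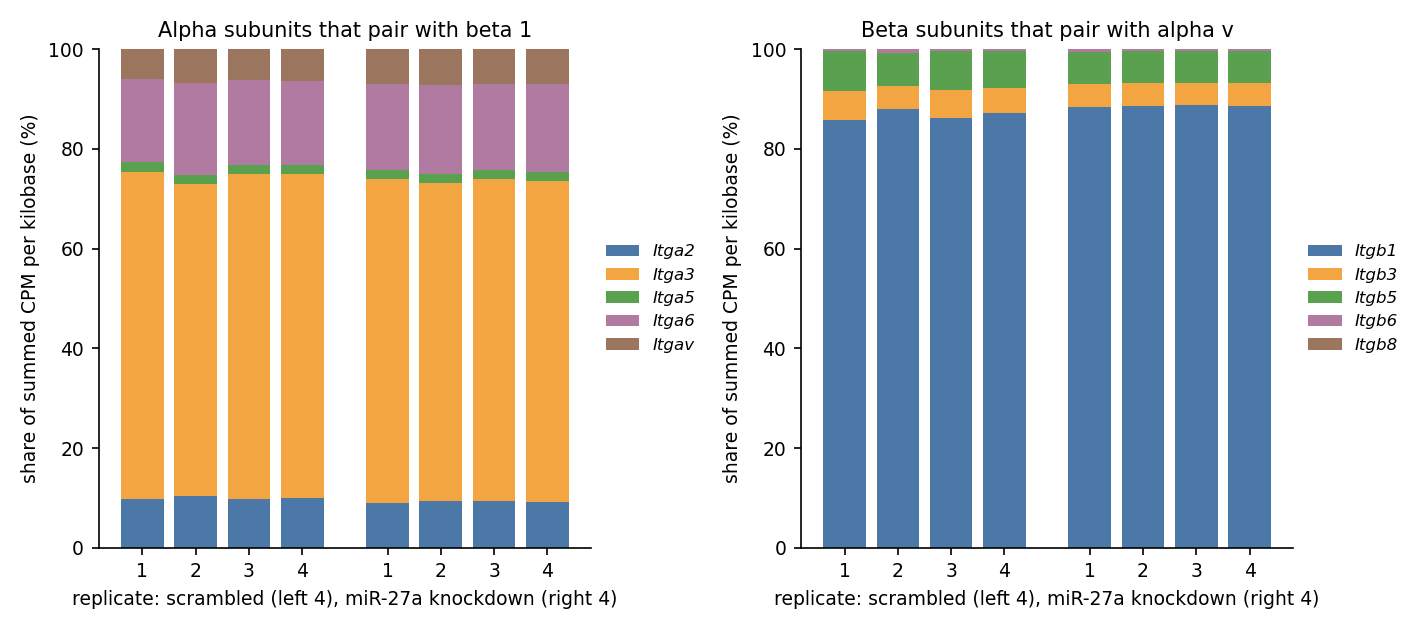
Shares of summed CPM per kilobase in each library, for the 5 alpha subunits of the set, which pair with Itgb1 (left), and the beta subunits that pair with Itgav (right), scrambled replicates first. Itga3 holds about 64% of the alpha sum in both lines and Itgb1 goes from a mean of 86.9% to 88.7% of the beta sum.

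Of the 18 integrin genes outside the set, 7 passed the filter, and these held larger changes than the 10. The share called was 42.9%, beside 47.9% over all tested genes. Itgb7, which pairs with alpha chains of lymphocytes, had 14.3 to 15.1 CPM in scrambled and 5.94 to 6.66 CPM in knockdown libraries, a 2.26-fold fall (log2 fold change −1.18, edgeR adjusted p = 4.86e-11). Itga7, a laminin receptor chain of muscle, fell 1.6-fold, from 20.2 ± 1.10 to 12.6 ± 0.557 CPM (SD, n = 4, edgeR adjusted p = 2.68e-08). Itga1, the collagen receptor chain most like Itga2 in its ligands, rose 1.40-fold, from 59.2 ± 3.04 to 83.2 ± 1.59 CPM (edgeR adjusted p = 6.06e-10). It shares 685 exon bases with Gm49395 on the same strand. Of these collagen-binding alpha chains Itga1 was thus called higher and Itga2 lower, though both held an 8mer in their annotated 3′ UTRs. Itga1 also held a 7mer-m8 and a 6mer.

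Of the markers of cell types known for these chains, the leukocyte list summed to 4.43 to 4.84 CPM in scrambled and 3.27 to 5.02 CPM in knockdown libraries. The muscle list was almost all Itga7, since Myog, Myod1, Ckm, Actn2 and Des had at most 0.026 CPM in the mean of either group. The other 4 tested subunits were not called: Itgb3 at 58.9 ± 6.07 and 62.4 ± 1.58 CPM (adjusted p = 0.219, and 0.0489 with chromosome-centred offsets) and Itga10, Itga2b and Itgb2 at under 1 CPM in the mean of each group. Of the platelet markers beside Itgb3, Gp9, Pf4 and Gp1ba were at 0 in every library and Ppbp stood at 2.73 and 1.77 CPM.

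Genes that work with the receptors were taken in 7 lists, counting the other subunits as 1 of them, and 3 genes stand in 2 lists. Over all tested genes 47.9% were called, 23.8% higher and 24.1% lower. With chromosome-centred offsets 2353 of 11695 genes were called higher and 2447 lower. The list of laminins and hemidesmosome partners, which holds matrix, membrane and cytoplasmic proteins, was mostly higher. Of its 11 tested genes 7 rose, Lamc1 fell and 3 were not called. The median log2 fold change was 0.19, beside 0.0017 over all tested genes. The share called in this list was 72.7%. Lamb3, a beta chain of epithelial laminin, rose 1.82-fold, from 74.7 ± 9.46 to 136 ± 3.49 CPM (SD, n = 4, edgeR adjusted p = 8.98e-12). Lama3, an alpha chain of epithelial laminin that was added after its values were seen, had 6, 7, 5 and 0 counts in the scrambled and 25, 26, 22 and 29 in the knockdown libraries (edgeR adjusted p = 1.03e-05), so it was rare in both lines.

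Plec, the plakin that links Itgb4 to keratin filaments, rose from 936 ± 62.0 to 1068 ± 20.0 CPM, 1.14-fold (edgeR adjusted p = 4.5e-05), and its log2 fold change was 0.19, against 0.14 without scrambled replicate 2. Cd151, a tetraspanin bound to the laminin-binding integrins, rose 1.09-fold (adjusted p = 0.00238). Npnt, the matrix protein nephronectin, stands in this list though it is not a laminin, and rose 1.25-fold (adjusted p = 6.69e-09). Lamc1 was called lower (1.06-fold, adjusted p = 0.0255), but its groups overlapped and the call was lost in edgeR with upper-quartile scaling (adjusted p = 0.0801) and without scrambled replicate 1 or 3 or knockdown replicate 3 or 4 (adjusted p = 0.092, 0.144, 0.0558 and 0.071). Col17a1, the collagen of classical hemidesmosomes, had 0 counts in all libraries.

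The RGD and collagen ligands were split. Of 18 tested, 6 rose and 7 fell, with a median log2 fold change of −0.032, and with chromosome-centred offsets 5 rose and 10 fell. The share called in the main fit was 72.2%, beside 47.9% over all tested genes. Fn1, fibronectin, rose 1.21-fold (392 ± 15.6 to 474.5 ± 6.48 CPM), Thbs1, thrombospondin, 1.75-fold and Col5a1, a fibrillar collagen chain, 2.70-fold. Tnc, tenascin, fell 3.81-fold, from 12.9 ± 0.742 to 3.38 ± 0.611 CPM. Tgfb1, whose latent form the Itgav pairs with Itgb6 and Itgb8 release, fell 1.28-fold (92.1 ± 3.40 to 71.8 ± 3.58 CPM, adjusted p = 8.8e-08), and Ltbp1, which anchors latent TGF-beta in the matrix, 1.13-fold (adjusted p = 6.23e-05).

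The activators and inactivators of integrins had 5 rises and 7 falls among 21 tested, with a median of 0.0035. The share called was 57.1%, beside 47.9% over all tested genes. Tln1, the main talin, was not called (661 ± 48.1 and 671 ± 4.18 CPM, adjusted p = 0.615), and neither was Fermt1, the epithelial kindlin (adjusted p = 0.15, 0.00373 without scrambled replicate 2 and 0.0497 with upper-quartile scaling). Fermt2, the widely expressed kindlin, fell 1.78-fold, from 62.3 ± 2.96 to 35.1 ± 0.819 CPM (adjusted p = 6.26e-13), and Tln2 rose 1.56-fold to 18.7 ± 0.439 CPM. The largest change was in Krit1, which binds and sequesters Itgb1bp1, an inhibitor of Itgb1 activation. Krit1 fell 5.14-fold, from 227 ± 2.32 to 44.2 ± 1.53 CPM (log2 fold change −2.36, adjusted p = 2.98e-25). It lies near the start of chromosome 5 (3803184 to 3845564), whose tested genes had a median log2 fold change of 0.14. With chromosome-centred offsets the value of Krit1 was −2.50. The part of its position in this fall was not tested. Itgb1bp1 itself was not called (21.3 ± 0.899 and 19.7 ± 1.02 CPM, adjusted p = 0.14). With chromosome-centred offsets it was called lower, at a log2 fold change of −0.21 against −0.11 (adjusted p = 0.00968). It has 402 exon bases in common with Asap2 and 196 with Cpsf3, both of the opposite strand.

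In the adhesion complex below the receptors 12 genes rose and 12 fell of 38 tested, with a median of 0.011, and with chromosome-centred offsets 16 rose and 8 fell. The share called in the main fit was 63.2%, beside 47.9% over all tested genes. Ptk2, the focal adhesion kinase, was not called (163 ± 2.23 and 162 ± 2.2 CPM, adjusted p = 0.68). The scaffold proteins Bcar1 and Pxn rose 1.29-fold and 1.23-fold and Arhgef7, a Rac exchange factor of adhesions, 1.33-fold (adjusted p at most 2.22e-08), with Bcar1 and Arhgef7 on chromosome 8. Zyx and Vcl, which join adhesions to actin, fell 1.51-fold (157 ± 6.91 to 104 ± 3.66 CPM) and 1.26-fold (569 ± 4.34 to 449.8 ± 4.04 CPM), and Pdlim5 1.19-fold. Ilk, the integrin-linked kinase that binds beta tails, was called 1.06-fold lower (adjusted p = 0.0115), but not with chromosome-centred offsets (adjusted p = 0.633). Vcl shares 2090 of its 8191 exon bases with the coding gene Ap3m1 on the opposite strand. Of the 2744 exon bases of Ilk, 2106 are shared with Taf10 and 355 with Rrp8, also coding and of the opposite strand. With the strand setting unknown, reads of these neighbours may be in the counts. Other named genes have overlaps that are not listed here.

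Among tetraspanins and other membrane partners 5 rose and 9 fell of 17 tested, with a median of −0.12. The share called was 82.4%, beside 47.9% over all tested genes. Cav1, caveolin, fell 1.63-fold (429 ± 14.5 to 264 ± 2.39 CPM), Emp2 1.96-fold and the syndecan Sdc4 1.35-fold (adjusted p at most 2.75e-11). The syndecan Sdc1 rose 1.24-fold, Tspan8 1.14-fold and Slc3a2, the CD98 heavy chain, 1.12-fold, the last of them not called with chromosome-centred offsets (adjusted p = 0.0785). Of the integrin trafficking genes 11 rose and 1 fell of 16 (75% called), with a median of 0.14, but with chromosome-centred offsets 6 rose and 1 fell. Myo10, a filopodial myosin that carries integrins, rose 1.16-fold, and Rab7, of the late endosome, fell 1.10-fold. Snx17 and Rab11fip1, which return integrins to the surface, rose 1.18-fold and 1.16-fold, and were among those not called relative to their chromosomes (adjusted p = 0.0615 and 0.816), as was Rab7 (adjusted p = 0.356).

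**Figure D4:**
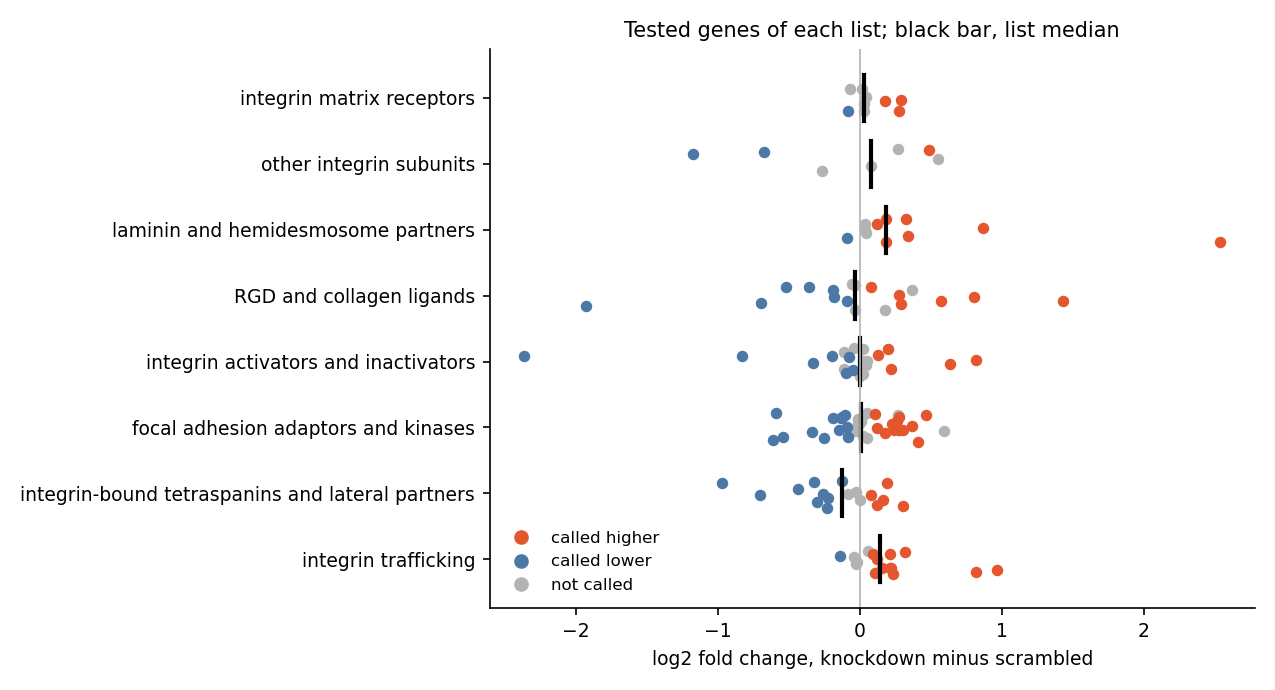
Log2 fold change (knockdown minus scrambled) of every tested gene of the 10 members and 7 lists, coloured by call, with the list median as a black bar. The members lie between −0.084 and 0.29, a narrower range than in any of the lists, whose medians run from −0.12 to 0.19.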

How the data were processed

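RNA of 8 libraries (4 per line) was prepared with a stranded poly(A) kit from samples of RNA integrity number 7 or more and read as paired ends of 59 bases, per the labels' protocols. The authors deposited raw counts per gene symbol. The build was mm10 and the tools DESeq2 1.36.0 with R 4.2.1, STAR, Bowtie and bcl2fastq, per the submitters' processing notes, which give them no role. The sources used here do not name the counting tool, its annotation or its strand setting. Symbols were matched to GENCODE M21 (GRCm38), 23311 by current and 648 by older symbol. All 10 members and all listed genes matched. Coordinates are 1-based GRCm38.

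For the main comparison edgeR 4.0.16 (R 4.3.3) was used: genes were kept by filterByExpr (count 10, total 15), scaled by TMM, and tested by glmQLFTest after glmQLFit with group as the sole term. A gene was called at a Benjamini-Hochberg adjusted p under 0.05 over all tested genes, whatever its fold change. Unless another tool is named, an adjusted p is from this test. Intervals are 95% from the same fit. The members and lists were chosen with earlier results of these data known, so counts over them are descriptions. Named genes are the 10 members, up to 3 called genes per list and direction with the smallest adjusted p and a mean of at least 5 CPM, the other tested subunits and 12 genes taken whatever their values. Alternatives were DESeq2's size factors and upper-quartile scaling, no filter, a stricter filter (1 CPM in 4 libraries), DESeq2 1.42.0, limma-voom (limma 3.58.1), the replicate number as a block, leaving out each library and, for lengths, the longest transcript. Chromosome-centred offsets (per library, the median deviation of log2 CPM of each chromosome with at least 100 tested genes) and the recount of the lists under every alternative were added after the data were seen. Some results are not reported here. The edgeR test was tested on simulated counts.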

Additional observations from a re-analysis of the deposited data

Results flagged for a closer look

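Each group of 4 libraries was searched for a library far from the other 3, by Dixon's ratio, for the 10 members and 45 other named genes. Of 110 groups 8 were flagged, where chance flags about 1 in 20. Scrambled replicate 2 was the library in 2 of them: it was low for Itga3 (1375 CPM, the others 1579 to 1593) and for Plec (844 CPM, the others 957 to 979). Itgb6 was high in knockdown replicate 1 (7.52 CPM, the others 6.38 to 6.58). Itgb8 was flagged in knockdown replicate 4 (0.137 CPM, from 3 counts, the others 0), which are too few counts to set libraries apart. The other flags were Numb in scrambled replicate 4 (39.6 CPM, the others 42.9 to 43.5), Myo10 in scrambled replicate 1 (127 CPM, the others 132 to 133), Itgb3 in knockdown replicate 3 (60.1 CPM, the others 62.9 to 63.4) and Cd151 in knockdown replicate 2 (201 CPM, the others 188).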

How the results depend on the processing

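Itgb1, Itgb4, Itgav and Itga2 kept their direction and their call under all 16 alternatives, with log2 fold changes of 0.090 to 0.31, 0.24 to 0.33, 0.15 to 0.20 and −0.11 to −0.065. The lowest of Itgb1 came with chromosome-centred offsets and all others gave 0.28 to 0.31. Without 1 library each, Itga3 ran from −0.033 to 0.035, Itgb5 from −0.021 to 0.057, Itgb6 from −0.045 to 0.23 and Itga6 from 0.038 to 0.064, and Itga6 was 0.066 with upper-quartile scaling, where it was called. Of named genes that were not called, Tln1 ran from −0.026 (without scrambled replicate 2) to 0.055 without 1 library each, and Ptk2 was 0.0049 with upper-quartile and 0.029 with chromosome-centred scaling. Itgb3 and Itgb1bp1 were called with chromosome-centred offsets (0.13 and −0.21), and Slc3a2, Snx17, Rab11fip1, Rab7 and Ilk were then not called. The cause of these changes was not tested.

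Over the alternatives, rises among the other subunits were 1 to 2 (2 with no filter and with chromosome-centred offsets), falls among laminin partners 0 to 1 (0 with upper-quartile scaling), falls among activators 4 to 7 (4 with upper-quartile scaling and with DESeq2) and rises among trafficking genes 6 to 11. Without scrambled replicate 2 falls among RGD and collagen ligands were 9, against 7, and the other list counts moved by at most 1. The scrambled and knockdown libraries of the same number did not deviate together (correlations of −0.0539 to 0.00509 over 9884 genes). No pairing was thus seen, but with 4 libraries per group this check cannot exclude that they were handled together. The replicate block gave 2762 genes higher and 2771 lower, against 2804 and 2841, and the same 3 and 1 members. Itgb8, with at most 3 counts in a library, was too low to compare at this depth.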
